A study of Rattus with 18 samples.

Results

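The genes described here encode the MHC class II antigen-presenting molecules of the rat, the proteins that load and escort them, and Ciita, the transcriptional coactivator that switches the group on. The list held 8 names: RT1-Da, RT1-Db1, RT1-Ba, RT1-Bb, RT1-DMa, RT1-DMb, Cd74 and Ciita. A gene was matched by the name printed for its probes on the array, in its older or its current form, and its probe with the highest mean signal was used. Of the 8 genes, 7 had a probe under that name, 6 entered the tests among 23185 genes and transcripts, and 5 (RT1-Da, RT1-Db1, RT1-Bb, RT1-DMa and Cd74) were well above background on all 18 arrays. RT1-DMb was not analysed here, and RT1-Ba did not pass the filter, which asked for a signal well above background on all 3 arrays of at least 1 day. Ciita passed through days 2 and 4 alone, so counts over the genes are given for the 5 and Ciita is described by itself.

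Glomeruli, the filtering units of the kidney, were profiled in SD rats weighing 200 g. Per the labels, 30 rats were given an antibody against Thy1 and were killed on days 1, 2, 3, 4 or 5, and 6 rats given saline served as day 0. Thy1 lies on the surface of rat mesangial cells, and an antibody against it injures these cells, a model known as anti-Thy1 nephritis. The design text counts 6 rats per time point with 3 glomeruli from each, and each day has 3 one-colour arrays. The labels name no genetic change in any group, and saline controls were taken on day 0 alone. An array is called by its day and the number its title carries, and values are listed in the order of those numbers: 2, 4, 5 on day 0; 1, 4, 5 on day 1; 2, 3, 4 on days 2 and 3; 1, 2, 3 on day 4; and 2, 4, 5 on day 5. The labels do not tie an array to particular rats, so a p-value reflects how much arrays of a day differ, part of which may be technical.

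MHC class II molecules are pairs of an alpha and a beta chain that show peptides from ingested material to CD4 T cells. In the rat, the RT1-B locus (RT1-Ba and RT1-Bb) and the RT1-D locus (RT1-Da and RT1-Db1) encode such pairs. Cd74, the invariant chain, fills the groove of newly made molecules and guides them to endosomes, where RT1-DM (RT1-DMa with RT1-DMb) exchanges the remnant of Cd74 for peptide. Ciita does not bind DNA itself but docks on the complex of RFX, CREB and NF-Y proteins at class II promoters, and interferon gamma induces it, with Irf1 among the factors involved. Dendritic cells, macrophages and B cells carry class II in most tissues, and kidney cells can acquire it under interferon gamma.

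Probes of the RT1 genes are shown because class II loci differ between rat strains, and probes of a single gene did not always behave alike. Positions are those of rat genome build rn4, as the array files give them, and no exon or UTR annotation of that build was used. Each sequence is written 5′ to 3′. The 2 probes of RT1-Ba overlap, and the first lies at chr20:4700973-4701032 on the plus strand, while the files give no position for the second. Capitals mark where these 2 probes differ.
RT1-Ba, A_44_P128248: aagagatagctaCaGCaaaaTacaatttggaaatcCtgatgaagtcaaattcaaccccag
RT1-Ba, A_44_P194167: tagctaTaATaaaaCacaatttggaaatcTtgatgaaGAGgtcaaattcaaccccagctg
Over 54 aligned bases, 49 were identical. The differences, counted from 1 at the 5′ end of A_44_P128248, were C13T, G15A, C16T, T21C and C36T. In A_44_P194167 alone, 3 further bases were found, at positions 38 to 40 counted from its own 5′ end. The signals of the 2 probes are therefore given apart below.

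RT1-Db1 had 3 probes, all on the minus strand, of which the first was the brightest and gave the values of the gene. A_44_P130513 lies at chr20:4672677-4672736, A_44_P130516 at chr20:4673410-4673469 and A_44_P139882 at chr20:4677050-4677109. The first and the last are shown because they differed in signal between arrays. RT1-Bb was read by A_44_P500803 at chr20:4732962-4733021 on the minus strand, shown as the probe behind the values of that gene, and by a second probe, A_44_P552452, at chr20:4730533-4730583.
RT1-Db1, A_44_P130513: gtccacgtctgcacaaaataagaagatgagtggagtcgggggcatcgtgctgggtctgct
RT1-Db1, A_44_P139882: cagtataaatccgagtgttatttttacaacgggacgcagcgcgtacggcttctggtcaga
RT1-Bb, A_44_P500803: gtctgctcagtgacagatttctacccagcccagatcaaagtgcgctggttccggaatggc
RT1-Da was read by A_44_P991532 at chr20:4641104-4641163 and by a second probe at chr20:4638704-4638763. The RT1-DMa probe, A_42_P473314, was placed in a stretch of 363 bases at chr20:4843704-4844066. Cd74 and Ciita lie on other chromosomes, with 1 probe each, at chr18:56765468-56765527 and chr10:5087172-5087231.

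Every level is a log2 processed signal minus the 75th percentile of its array, so that 0 equals that percentile, and a difference of 1 is a 2-fold difference in signal. The share of probes well above background ranged from 55.2% to 69.6% over the arrays. The 3 controls had the lowest 75th percentiles, 181 to 229 units of signal, against 252 to 452 on the later arrays. Scaling to the median of each array instead moved the median of all genes against day 0 by 0.33 to 0.42, and scaling to a list of reference genes moved it by -0.57 to -0.37, so differences from day 0 are relative to the chosen scale. The scan of days 2 and 4 took place apart from that of days 0, 1, 3 and 5, so that for them day and scan day cannot be told apart against day 0. All 10 podocyte markers examined were well above background on every array, as were 7 to 8 of 8 tubule markers on each array.

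The plot of levels by array shows 4 class II genes and Cd74 standing high on day 3, and Ciita low on all arrays with its highest levels on day 4. The direction of Ciita against day 0 depended on the background correction and its offset.

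**Figure D1:**
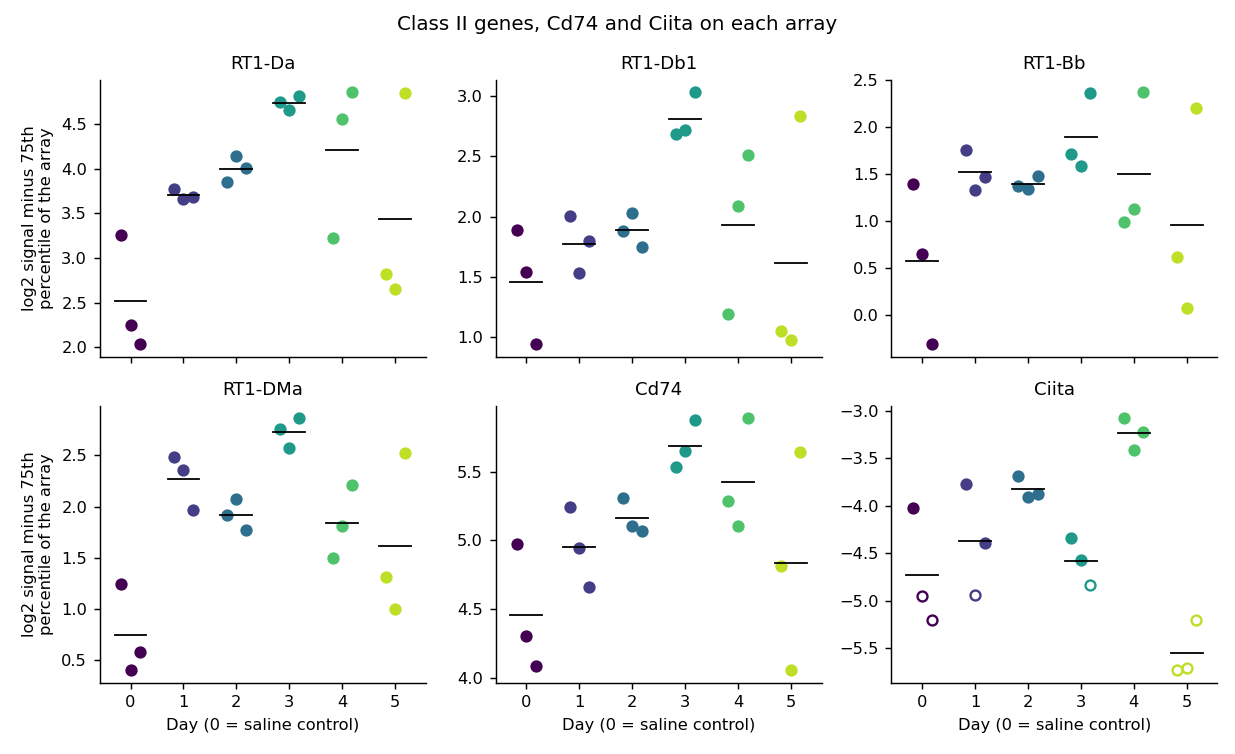
Levels of the 6 genes tested on each of the 18 arrays, by day after the antibody (horizontal axis), as log2 processed signal minus the array's 75th percentile (vertical axis). Each point is 1 array, filled where the probe was well above background, and bars are means of 3 arrays. RT1-Da, RT1-Db1, RT1-Bb, RT1-DMa and Cd74 were above all 3 controls on every day 3 array, and Ciita was highest on day 4. Its day 4 difference from day 0 turned to -0.16 with a background correction from negative control spots and an offset of 50.

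RT1-Da, the alpha chain of the RT1-D pair, rose most among these genes. Its level was 3.25, 2.26 and 2.04 on the day 0 arrays, and 4.74, 4.66 and 4.81 on the day 3 arrays. It was 3.77, 3.66 and 3.69 on day 1, 3.86, 4.14 and 4.01 on day 2, 3.23, 4.55 and 4.85 on day 4, and 2.82, 2.65 and 4.84 on day 5. Every array of days 1, 2 and 3 stood above every control, whereas day 4 replicate 1 and day 5 replicates 2 and 4 lay within the range of the controls. The day 3 mean was 4.74 ± 0.07 (SD, n = 3), against 2.51 ± 0.65 on day 0 (SD, n = 3). In the limma fit the difference was 2.22 ± 0.50 (SE) or 4.66-fold on day 3 (adjusted p = 0.00276). It was 2.80-fold on day 2 (adjusted p = 0.0254) and 3.24-fold on day 4 (adjusted p = 0.0111) in the same limma fit. The differences of 1.19 ± 0.50 on day 1 (limma adjusted p = 0.0687) and 0.92 on day 5 (limma adjusted p = 0.143) did not pass the threshold of 0.05. The day 2 call was lost without day 0 replicate 4 (limma adjusted p = 0.0906), day 0 replicate 5, day 2 replicate 3 or day 2 replicate 4, and the day 4 call without day 4 replicate 3 (limma adjusted p = 0.0542). The second RT1-Da probe differed by 2.12 ± 0.55 on day 3 (limma adjusted p = 0.0059) and by 1.47 on day 2 (0.0398), and its difference of 1.28 on day 4 did not pass (limma adjusted p = 0.0610). In whole glomeruli, fewer or more cells of a type and less or more RNA per cell cannot be told apart.

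RT1-Db1, the beta chain that pairs with RT1-Da, passed the test against day 0 on day 3. Day 3 itself was not shown to differ from days 1, 2 or 4 (limma adjusted p = 0.308, 0.436 and 0.256). Its level was 1.89, 1.54 and 0.94 on day 0, 2.00, 1.53 and 1.80 on day 1, and 1.88, 2.03 and 1.75 on day 2. It was 2.68, 2.72 and 3.03 on day 3, 1.20, 2.09 and 2.51 on day 4, and 1.05, 0.97 and 2.83 on day 5. All 3 day 3 arrays stood above all controls, and on each other day at least 1 array lay within the range of the controls. The day 3 difference was 1.35 ± 0.42 (SE), 2.55-fold (limma adjusted p = 0.0169). The other days gave 0.32 on day 1, 0.43 on day 2, 0.47 on day 4 and 0.16 on day 5 (limma adjusted p = 0.564, 0.423, 0.361 and 0.772), and the sign of the differences on days 1, 4 and 5 turned with scaling to the reference genes (-0.10, -0.095 and -0.26). The day 3 call was lost without day 0 replicate 5 (limma adjusted p = 0.0698) or day 3 replicate 4 (limma adjusted p = 0.0509), and with scaling to the reference genes.

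The 3 RT1-Db1 probes agreed on the direction on day 3 and differed in what they did on single arrays. A_44_P130516 differed by 1.13 ± 0.45 (limma adjusted p = 0.0486) and A_44_P139882 by 3.69 ± 1.05 (limma adjusted p = 0.0102). A_44_P139882 was at -6.77 on day 0 replicate 5 and at -6.74 on day 1 replicate 1, where it was not well above background, and between -3.73 and -0.46 on the other 16 arrays. On these arrays A_44_P130513 read 0.94, the lowest of its 18 values, and 2.00, the highest of day 1. The difference of A_44_P139882 against day 0 therefore includes 1 control array at background.

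RT1-Bb, the beta chain of the RT1-B pair, had its highest mean on day 3 with a wider spread than RT1-Db1. Its level was 1.39, 0.66 and -0.30 on day 0, 1.76, 1.33 and 1.47 on day 1, and 1.38, 1.34 and 1.49 on day 2. It was 1.72, 1.59 and 2.37 on day 3, 1.00, 1.13 and 2.37 on day 4, and 0.62, 0.07 and 2.20 on day 5. The day 3 arrays lay above the controls, but replicates 2 and 3 narrowly, while day 4 and day 5 each had 1 high array and 2 within the range of the controls. The day 3 difference of 1.31 ± 0.50 (SE), 2.48-fold, passed the test (limma adjusted p = 0.0440). This call was lost when any array of the 6 but day 0 replicate 2 was left out, with limma adjusted p up to 0.190 without day 0 replicate 5. The differences on days 1, 2, 4 and 5 were 0.94, 0.82, 0.92 and 0.38 (limma adjusted p = 0.146, 0.194, 0.139 and 0.550), the last of which turned to -0.04 with scaling to the reference genes.

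The second RT1-Bb probe, A_44_P552452, gave signal on 2 arrays alone. It was at 0.96 on day 0 replicate 5 and at 1.13 on day 5 replicate 4, and between -7.03 and -5.29 on the other 16, where it was not well above background. These were the 2 arrays on which A_44_P500803, the probe printed above, was lowest.

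RT1-Ba, the alpha chain that pairs with RT1-Bb, gave no measurement that could be compared between days. The probe A_44_P194167 was well above background on 8 of 18 arrays: day 0 replicates 2 and 5, day 1 replicate 1, day 2 replicates 2 and 4, day 4 replicates 1 and 3, and day 5 replicate 4. Its level was -1.60, -5.54 and -1.69 on day 0, 0.06, -4.31 and -6.82 on day 1, and -4.02, -5.73 and -0.48 on day 2. It was -6.42, -4.88 and -6.87 on day 3, -4.36, -5.04 and 0.42 on day 4, and -6.49, -1.38 and -5.08 on day 5. Arrays of a single day thus lay far apart, from -6.82 to 0.06 on day 1, and on day 3, when its partner RT1-Bb was highest in mean, no array was above background. The other probe, A_44_P128248, was not above background on any array (-7.19 to -5.71). In a fit without the filter the day 3 difference of RT1-Ba was -3.12 ± 1.93 (limma adjusted p = 0.249).

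**Figure D2:**
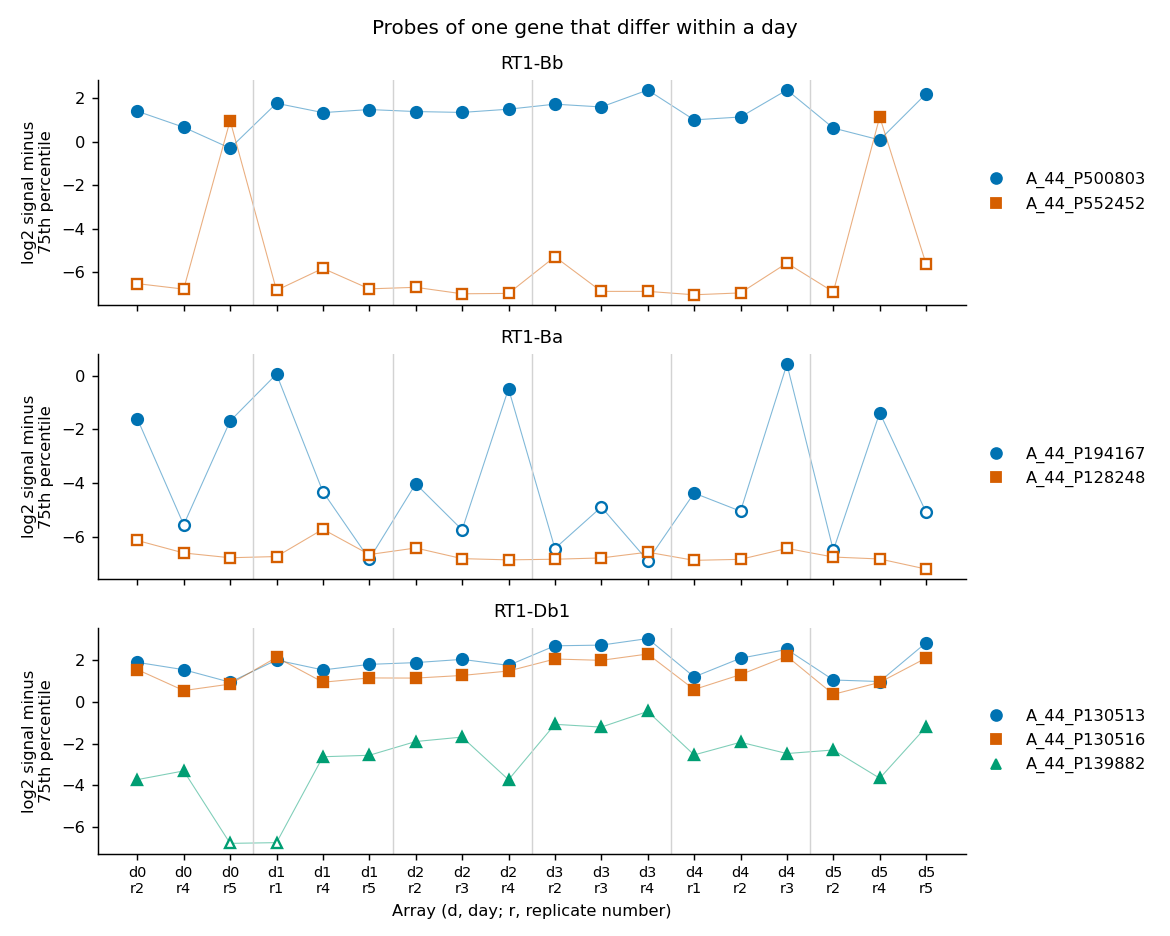
Levels of the separate probes of RT1-Db1, RT1-Bb and RT1-Ba on each array by day (horizontal axis), as log2 processed signal minus the array's 75th percentile (vertical axis), filled where well above background. The probe A_44_P552452 of RT1-Bb stands at 0.96 and 1.13 on 2 arrays and below -5 elsewhere, and A_44_P194167 of RT1-Ba splits the arrays of most days.

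RT1-DMa, a subunit of the peptide exchange factor, passed the test against day 0 on each of the 5 days, on day 5 in few of the alternative settings. Its level was 1.24, 0.40 and 0.58 on day 0, 2.49, 2.36 and 1.97 on day 1, and 1.92, 2.08 and 1.77 on day 2. It was 2.76, 2.57 and 2.86 on day 3, 1.49, 1.81 and 2.21 on day 4, and 1.31, 1.00 and 2.52 on day 5. All arrays of days 1 to 4 stood above all controls, and day 5 replicate 4 lay below the highest control. The difference was 1.53 ± 0.33 on day 1 (2.89-fold, limma adjusted p = 0.00443) and 1.99 ± 0.33 on day 3 (3.98-fold, limma adjusted p = 0.000662). The folds were 2.27 on day 2, 2.14 on day 4 and 1.83 on day 5 (limma adjusted p = 0.00977, 0.0120 and 0.0427). The day 1 and day 3 calls held when any single array was left out. The day 2 call was lost without day 0 replicate 4 (limma adjusted p = 0.0504), and the day 4 call without that array (0.0578) or day 4 replicate 3 (limma adjusted p = 0.0555). The day 5 call was lost without day 0 replicate 4 (0.163), day 0 replicate 5 (0.103) or day 5 replicate 5 (limma adjusted p = 0.224). It was also lost with quantile normalization (limma adjusted p = 0.0719), scaling to the reference genes (0.260) or no filter (0.0624).

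Cd74, the invariant chain, rose on days 3 and 4. Its level was 4.97, 4.30 and 4.09 on day 0, 5.25, 4.95 and 4.66 on day 1, and 5.31, 5.11 and 5.07 on day 2. It was 5.53, 5.65 and 5.87 on day 3, 5.28, 5.11 and 5.89 on day 4, and 4.81, 4.06 and 5.64 on day 5. The arrays of days 2, 3 and 4 stood above all controls, and day 5 replicate 4 was the lowest of the 18. The difference was 1.23 ± 0.33 (SE), 2.35-fold, on day 3 (limma adjusted p = 0.00801) and 1.96-fold on day 4 (limma adjusted p = 0.0247). On day 1 it was 0.49 ± 0.33 and on day 2 it was 0.71 (limma adjusted p = 0.244 and 0.0970). On day 5 it was 0.38 (limma adjusted p = 0.362), which turned to -0.05 with quantile normalization and to -0.04 with scaling to the reference genes. The day 4 call was lost without day 0 replicate 4 (limma adjusted p = 0.0787), day 0 replicate 5 (0.0919) or day 4 replicate 3 (0.111), and with quantile normalization (0.45, limma adjusted p = 0.275).

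Read together, the 5 genes well above background on all arrays had their highest mean on day 3, and each passed the test on that day. On day 1, 1 of 5 was higher than on day 0 at a limma adjusted p under 0.05, where 19.2% of all genes tested were. On day 2 it was 2 of 5, against 20.8% of all genes. On day 3 it was 5 of 5, against 21.7%. On day 4 it was 3 of 5, against 25.6%, and on day 5 it was 1 of 5, against 20.9%. The day 1 and day 5 shares, 1 of 5 each, lie near the background, and the day 3 share is the farthest from it.

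The median log2 difference of the 5 was 0.94, 0.82, 1.35, 0.97 and 0.38 on days 1 to 5, against 0.06, 0.05, -0.02, 0.05 and 0.06 over all genes. Every array of the day stood above every control for 2 of the 5 genes on day 1, 3 on day 2, 5 on day 3, 2 on day 4 and none on day 5. Over all genes the share that did so was 27.4% on day 1, 28.0% on day 2, 26.2% on day 3, 28.8% on day 4 and 24.9% on day 5. The 5 comparisons share the same 3 controls, so they are not independent of each other.

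**Figure D3:**
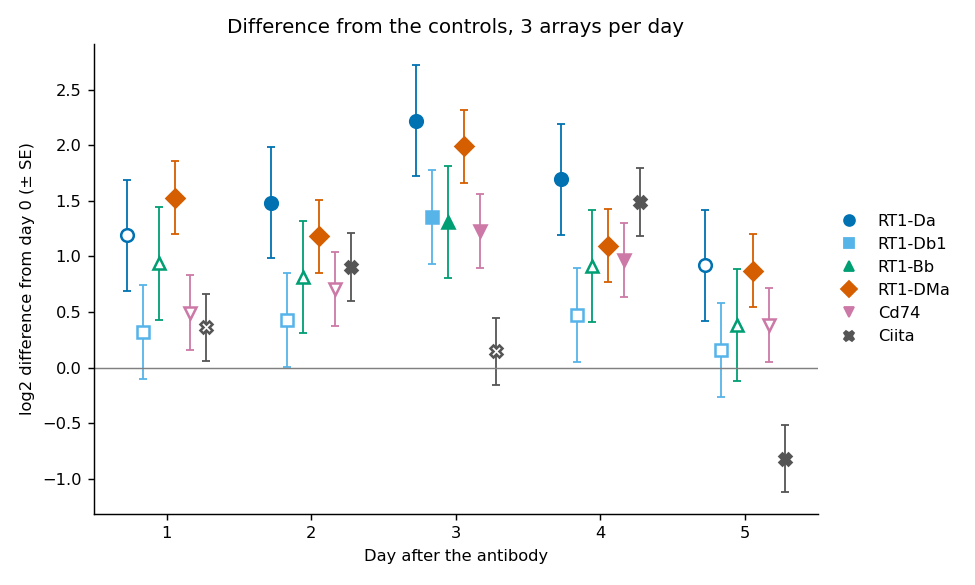
Log2 difference from day 0 (vertical axis) of the 6 genes tested on days 1 to 5 (horizontal axis), with standard errors of the limma fit, filled where the adjusted p was under 0.05. RT1-Da reached 2.22 and RT1-DMa 1.99 on day 3, and Ciita passed on day 4 (1.49) but not on day 3 (0.15). Ciita entered the tests through days 2 and 4 alone. The Ciita differences on days 2, 3 and 4 turned to -0.37, -0.58 and -0.16 with a background correction from negative control spots and an offset of 50.

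The count of 5 on day 3 rested in part on single arrays and on the model. Without day 0 replicate 5, or without day 3 replicate 4, 3 genes remained (RT1-Da, RT1-DMa and Cd74), and these 3 passed whichever array was left out. Day 3 shared no slide with day 0, and with the slide as a fixed term the differences were 2.29 for RT1-Da, 1.58 for RT1-Db1, 1.43 for RT1-Bb and 1.58 for Cd74. None of these 4 passed then (limma adjusted p = 0.0922, 0.160, 0.304 and 0.113), and RT1-DMa did (limma adjusted p = 0.0444). Within slide 1, day 1 replicate 1 stood above the mean of the 3 controls by 1.75 for RT1-DMa, 1.26 for RT1-Da, 1.18 for RT1-Bb, 0.79 for Cd74 and 0.54 for RT1-Db1. Within slide 2, the 2 day 3 arrays stood above the 2 day 1 arrays by 1.04 for RT1-Db1, 1.03 for RT1-Da, 0.79 for Cd74, 0.50 for RT1-DMa and 0.25 for RT1-Bb.

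On day 4, leaving out replicate 3 left 1 of the 6 genes tested, Ciita, and leaving out day 0 replicate 4 left 2, against 4 with all arrays. On day 2, where 3 of the 6 passed with all arrays, none passed without day 0 replicate 4 (limma adjusted p = 0.0504 for RT1-DMa, 0.0906 for RT1-Da and 0.0950 for Ciita), and 1 passed without day 0 replicate 5, day 2 replicate 3 or day 2 replicate 4. On day 1, 2 passed without day 0 replicate 2, the second being RT1-Da (limma adjusted p = 0.0325).

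Ciita, the coactivator, had its highest levels on days 2 and 4. Its level was -4.03, -4.96 and -5.20 on day 0, -3.77, -4.94 and -4.40 on day 1, and -3.69, -3.91 and -3.88 on day 2. It was -4.34, -4.57 and -4.84 on day 3, -3.08, -3.41 and -3.22 on day 4, and -5.73, -5.71 and -5.20 on day 5. The arrays of days 2 and 4 stood above all others but day 1 replicate 1, the day 3 arrays lay within the range of the controls, and the day 5 arrays were the lowest or among the lowest. The probe was well above background on 1, 2, 3, 2, 3 and 0 arrays of days 0 to 5, 11 of 18 in all, and its highest processed signal was 42.6 units, so these are dim values. Days 2 and 4, the days on which it was high, are the days of the second scan day.

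Against day 0, Ciita differed by 0.90 ± 0.30 on day 2 (1.87-fold, limma adjusted p = 0.0253) and by 1.49 ± 0.30 on day 4 (2.81-fold, limma adjusted p = 0.00123). It entered the tests through days 2 and 4 alone, so the calls on these days do not count as support for a rise. Both differences turned in sign with a background correction from negative control spots (-0.37 and -0.16). Days 1 and 3 gave 0.36 and 0.15 (limma adjusted p = 0.350 and 0.717), with signs that turned in the same way (-0.28 and -0.58). With that correction Ciita was called lower than on day 0 on day 2 and on day 3 (limma adjusted p = 0.0267 and 0.00209). On day 5 the fit gave -0.82 ± 0.30 (limma adjusted p = 0.0398), where 23.4% of all genes were lower, and the sign turned to 0.46 with the slide as a fixed term. No day 5 array was above background, so the difference is a bound, at least 1.20-fold lower than day 0, where 1 of 3 arrays was above background. The day 4 call held whichever array was left out (adjusted p 0.000411 to 0.00743), and the day 2 call was lost without any array of its 6 but day 0 replicate 2 (up to 0.106). The day 5 call was lost without day 0 replicate 2 (limma adjusted p = 0.183), day 0 replicate 4, day 5 replicate 2 or day 5 replicate 4.

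Changes of Ciita between later days were compared after the levels had been seen, in a gene that entered the tests through days 2 and 4 alone. Day 4 stood above day 3 by 1.35 ± 0.30 (limma adjusted p = 0.0318, where 1.63% of all genes were higher), and the fit gave -2.31 for day 5 against day 4 (limma adjusted p = 0.00187, where 2.06% were lower). Since no day 5 array was above background, the latter is a bound, at least 3.37-fold lower. Each of these pairs sets an array of scan day 2 against one of scan day 1. With the background correction from negative control spots they were 0.41 and -0.30, and neither passed (limma adjusted p = 0.0927 and 0.213). The day 4 difference from day 3 no longer passed without day 3 replicate 3, day 3 replicate 4, day 4 replicate 1 (limma adjusted p = 0.138) or day 4 replicate 3.

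Comparisons among the later days do not use the controls. Between days 1 and 3 the differences were 1.04 for RT1-Db1, 1.03 for RT1-Da, 0.73 for Cd74, 0.46 for RT1-DMa and 0.37 for RT1-Bb. None passed in the limma fit (adjusted p = 0.308, 0.379, 0.356, 0.558 and 0.779), 2 of 5 had an unadjusted p under 0.05, and 0% of all genes were called higher. With the 6 arrays of days 1 and 3 alone, RT1-Da passed (1.03 ± 0.13, limma adjusted p = 0.0298). For 4 of the 5 genes, every day 3 array stood above every day 1 array, as in 10.1% of all genes. Between days 4 and 2 the 5 differences lay between -0.08 and 0.27, none passed in the limma fit (0 with an unadjusted p under 0.05), and 0.0604% of all genes were called higher.

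From day 3 to day 5 the 5 genes differed by -1.30 to -0.85, and 1 array decided whether they passed. With all arrays none passed in the limma fit (adjusted p 0.191 to 0.454, 4 of 5 with an unadjusted p under 0.05), where 0.00431% of all genes were called lower. Without day 5 replicate 5 the differences were -2.0 for RT1-Da, -1.80 for RT1-Db1, -1.58 for RT1-DMa, -1.54 for RT1-Bb and -1.25 for Cd74. Of these 5, 4 passed (limma adjusted p = 0.0174, 0.0134 and 0.0115 for the first 3 and 0.0359 for Cd74) and RT1-Bb did not (limma adjusted p = 0.0705), where 2.83% of all genes were called lower. Without that array the differences of day 5 from day 0 were -0.45 for RT1-Db1, -0.23 for RT1-Bb and -0.02 for Cd74.

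Over all 6 time points, the moderated F-test of limma called 2 of the 5 genes, with 53.1% of all genes called. They were RT1-DMa (adjusted p = 0.00427) and RT1-Da (adjusted p = 0.0239). Ciita, which entered the tests through days 2 and 4 alone, passed as well (adjusted p = 0.00158). Cd74 (limma adjusted p = 0.0540), RT1-Db1 (0.116) and RT1-Bb (0.246) did not pass. Without day 5 replicate 5 all 6 genes tested passed, Ciita included, and without day 0 replicate 4 or day 0 replicate 5 it was 2 of the 6. A share of 2 in 5 is no higher than the background.

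The 5 genes moved together from array to array, within days as well as between them. Pearson's r between pairs of them was 0.80 to 0.90 over the 18 arrays, and 0.77 to 0.96 over deviations from the day means, while Ciita correlated with them at 0.24 to 0.47 and 0.43 to 0.56. The arrays share the scale of each array and their day, so these are descriptions. The mean of the 5, each centred on its own mean over the arrays, was -0.24, -0.95 and -1.32 on day 0 and 0.70, 0.65 and 1.00 on day 3. On day 4 it was -0.35, 0.15 and 0.78, and on day 5 it was -0.66, -1.03 and 0.82. Day 4 replicate 1 was the lowest array of its day for RT1-Da, RT1-Db1, RT1-Bb and RT1-DMa but not for Cd74, and day 5 replicate 5 was the highest of its day for all 5 genes.

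Macrophage and monocyte markers moved with the class II genes over the same arrays. Their summed level over 15 genes, in multiples of the array's 75th percentile, was 56.7, 52.8 and 31.5 on day 0, 179, 226 and 165 on day 1, and 187, 248 and 147 on day 2. It was 317, 308 and 377 on day 3, 36.7, 171 and 146 on day 4, and 60.4, 43.8 and 236 on day 5. The low array of day 4 and the high array of day 5 were the same arrays as for class II. This was not particular to macrophage markers. The same arrays were low and high for T and NK cell markers (3.89 and 19.7), mesangial markers (20.9 and 57.8) and class I presentation genes (448 and 772). Tubule markers went the other way, with 873 and 575 on these arrays. Of 14 markers tested, 13 were higher on day 3, led by Gpnmb (5.47 ± 0.90), Ms4a7 (4.18) and C1qb (3.93), and 9, 13, 5 and 2 were higher on days 1, 2, 4 and 5. Over all genes the share higher was 19.2%, 20.8%, 21.7%, 25.6% and 20.9% on days 1 to 5, so the counts of days 4 and 5 are nearer to it or below it. Cd163 was not above background on any array. The part of these cells in the class II differences was not tested.

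**Figure D4:**
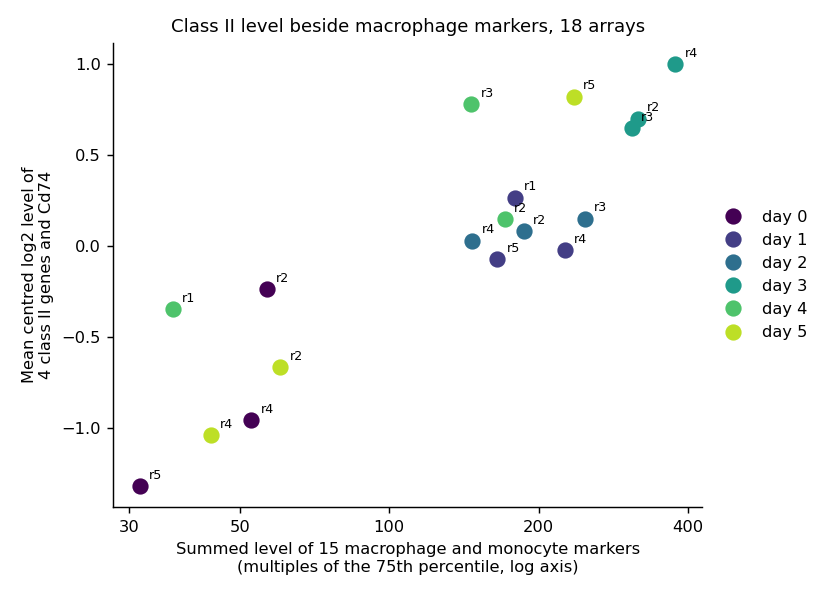
Mean centred log2 level of RT1-Da, RT1-Db1, RT1-Bb, RT1-DMa and Cd74 (vertical axis) against the summed level of 15 macrophage and monocyte markers in multiples of the array's 75th percentile (horizontal axis, log scale), 1 point per array with its replicate number. Day 3 lies at the upper right (308 to 377), 2 controls and day 5 replicate 4 at the lower left, and day 5 replicate 5 (236) near day 3.

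Other cell types that can carry class II were examined in the same way. On day 3, 21.7% of all genes were higher. Of the B cell list, 4 genes were tested, and Cd79b, a part of the B cell receptor (3.38 ± 0.62), and Fcer2 (1.62) were higher on day 3. Bank1 passed too, but it entered the test through day 3 alone and was above background on no day 0 array, so that it is given as a bound, at least 1.20-fold higher. Its difference turned to -0.20 with a background correction from negative control spots and an offset of 50, and that of Fcer2 became 0.44 and did not pass (limma adjusted p = 0.124). The Fcer2 call was also lost without day 0 replicate 4 (limma adjusted p = 0.0979), day 0 replicate 5 or day 3 replicate 3. The summed B cell level was 0.370 to 0.749 on day 0 and 0.966 to 1.24 on day 3, and Cr2 and Blk were at background on all arrays. Of the dendritic cell list, 1 of 4 tested was higher on day 3, Batf3 (3.35), a count near the 21.7% of all genes. The summed dendritic cell level was 2.54 to 3.99 on day 0 and 3.68 to 5.65 on day 3, and Xcr1 and Cd209a were at background throughout. On day 4, Itgae (0.81) was higher and Ccr7, a homing receptor of mature dendritic cells, was lower (-1.33).

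The T and NK cell list, which holds Cd8a but not Cd4, had 9 of 10 tested genes higher on day 3, against 21.7% of all genes. Its summed level went from 3.59 to 7.46 on day 0 to 13.3 to 36.5 on day 3, led by Gzmb (3.02), Prf1 (2.98) and Klrd1 (2.94), all of them genes of cytotoxic cells, and Cd247 was at background on all arrays. No neutrophil marker of 3 tested passed in limma on day 3 (1 with an unadjusted p under 0.05). Among resident cells, whose day 3 counts can be read against 21.7% of all genes higher and 26.0% lower, 2 mesangial markers of 10 rose and 1 fell, with Itga8 at -2.50 and Mcam at 1.47, and Fhl2 was higher on day 4 (1.84). Of 10 endothelial markers 1 rose and 3 fell, and Ehd3 (-2.81), Pecam1 (-1.68) and Kdr (-1.16) were lower on day 4. Of 10 podocyte markers 2 fell, and Lmx1b (-1.95) and Synpo (-1.82) were lower on day 4. Of 8 tubule markers, listed for the proximal tubule but with Umod of the thick ascending limb among them, none passed in limma on day 3 (1 with an unadjusted p under 0.05). Havcr1 was lower on day 4 (-1.26). The summed tubule level was 499 to 767 on day 0 and 459 to 588 on day 3, against 220 to 280 and 218 to 263 for podocyte markers. Without day 0 replicate 4, the calls of Mcam and Havcr1 were lost (limma adjusted p = 0.0807 and 0.209), as were those of Fhl2 and Havcr1 without day 4 replicate 2 (limma adjusted p = 0.0512 and 0.187). The part of any of these in the class II differences was not tested.

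Among the genes that act upstream of Ciita, the interferon gamma list had 4 of 10 tested genes higher and 1 lower on day 3, against 21.7% and 26.0% of all genes. Ifngr2, a chain of the receptor, differed by 1.00 (limma adjusted p = 0.000646). Irf1, a transcription factor that acts on Ciita, differed by 0.78 ± 0.28 (limma adjusted p = 0.0346), a call lost without day 0 replicate 2, day 0 replicate 5 (0.137), day 3 replicate 2 or day 3 replicate 4. On day 4, when Ciita was highest, Irf1 differed by -0.36 (limma adjusted p = 0.301). Socs1, an inhibitor of the pathway, was lower on day 4 (-1.37, limma adjusted p = 0.00610), and Ptpn2, a phosphatase that acts on the pathway, was higher (1.15, limma adjusted p = 0.00111). Ifng itself was above background on 2 arrays, day 3 replicate 3 and day 5 replicate 5, and did not pass the filter. In a fit without the filter its day 3 difference was 1.84 ± 0.48 (limma adjusted p = 0.00907). No day 0 array was above background, so this is not a measured size.

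Among the DNA-binding partners and cofactors of Ciita, 1 of 9 tested was higher and 1 lower on day 3, no more than the 21.7% and 26.0% of all genes. Rfx5, a subunit of RFX, was lower on day 3 (-1.42, limma adjusted p = 0.00402) and on day 4 (-1.45 ± 0.34, limma adjusted p = 0.00310), and its control arrays read -3.56, -2.04 and -3.42 with day 0 replicate 4 highest. Nfya, a subunit of NF-Y, differed by 0.48 on day 3 (limma adjusted p = 0.0309), which turned to -0.55 with the mean of its probes in place of the brightest and to -0.09 with a background correction from negative control spots. The Nfya call was lost without day 0 replicate 2 (limma adjusted p = 0.113), day 0 replicate 5, day 3 replicate 2 or day 3 replicate 3. Creb1 was higher on day 4 (1.32, limma adjusted p = 0.00209), a call lost with the mean of its probes (0.076, limma adjusted p = 0.682). The 3 of these that passed thus differed in direction.

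Genes that process antigen for class II had 2 of 11 tested higher and 1 lower on day 3, no more than the 21.7% and 26.0% of all genes. On day 4, 6 were higher and 1 lower, against 25.6% and 26.7%. Ctss, the cathepsin that trims the invariant chain, differed by 2.84 ± 0.60 on day 3, 7.15-fold (limma adjusted p = 0.00188), and by 1.62 on day 4 (limma adjusted p = 0.0335). Its day 3 call was lost with the slide as a fixed term (limma adjusted p = 0.132). Ifi30, a lysosomal thiol reductase, differed by 1.08 on day 3 (limma adjusted p = 0.000545), and Ctsh by 1.16 on day 4 (limma adjusted p = 0.00649). Marchf1, a ligase that removes class II from the cell surface, was lower on day 3 (-2.44, limma adjusted p = 0.00737), with controls at -1.78, 2.14 and -0.80, so that day 0 replicate 4 stood far above the other two. RT1-DOb, a chain of the DM inhibitor DO, differed by -0.68 (limma adjusted p = 0.353), and by 1.55 with the slide as a fixed term. Its partner RT1-DOa was above background on 1 array, day 5 replicate 2, and did not pass the filter. In a fit without the filter it differed by 0.36 on day 3 and 1.27 on day 5 (limma adjusted p = 0.600 and 0.0409).

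Costimulatory genes were mostly dim, and 4 of 10 listed were tested. Cd40, a surface protein of antigen-presenting cells, was higher on day 3 (1.65, limma adjusted p = 0.000834). Cd86, another such protein, entered the test through days 2 and 3 alone. It was above background on no day 0 array and on all 3 day 3 arrays, so its difference is given as a bound, at least 3.21-fold higher. That difference turned to -0.02 with a background correction from negative control spots and an offset of 50. Ctla4, an inhibitory T cell receptor, was lower on day 4 (-2.74, limma adjusted p = 0.00478). Its controls read -2.81, 1.08 and -2.61, so that day 0 replicate 4 stood far above the others. Leaving out single arrays gave -3.42 to -1.48, and the call was lost with the authors' deposited values (limma adjusted p = 0.0602). Cd4, the coreceptor for class II, was above background on 5 arrays and did not pass the filter. In a fit without the filter it differed by 1.90 on day 2 and 1.77 on day 3 (limma adjusted p = 0.0297 and 0.0388). No day 0 array was above background, so these are not measured sizes.

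Class I presentation, the parallel route to CD8 T cells, had 9 of 13 tested genes higher and none lower on day 3, against 21.7% and 26.0% of all genes. On day 4, 4 were higher and 2 lower, against 25.6% and 26.7%. Psmb8 (2.16) and Psmb9 (1.83), subunits of the immunoproteasome, Psme2 (1.74), its activator, and Tap1 (1.61), the peptide transporter, led on day 3. B2m, the light chain of class I molecules, differed by 0.73 ± 0.20 (limma adjusted p = 0.00746). The median difference of the 13 on day 3 was 1.07, against -0.02 over all genes, and it was 0.48 on day 4.

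The genes most like the class II group over the arrays were found by Pearson's r with the mean of the 6 genes tested, over 18 arrays and 12243 other genes with a current symbol. RT1-Db2, another beta gene of the RT1-D region, came first (0.929) with a difference of 1.49 on day 3, and cross-hybridisation between RT1-Db1 and RT1-Db2 was not tested. Others among the most alike were Ctss (0.916), Tmem273 (0.898), Ripk3 (0.896), Mmp12 (0.893), Aim2 (0.889) and Litaf (0.887). When deviations from the day means were used, RT1-Db2 was again first (0.948), then Vsir (0.899), C5ar1 (0.888), Tgfb3 (0.874), P2ry6 (0.867), Gna15 (0.867), Litaf (0.867) and Chit1 (0.861). RT1-Db2 and Litaf were on both lists.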

How the data were processed

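Glomerular RNA of 6 time points was measured on 18 one-colour Agilent arrays, 3 per time point. Per the file headers, the authors made the processed intensity of each spot with Agilent Feature Extraction 10.7.3.1, by background subtraction and detrending within the array, with no scaling between arrays, and positions are of build rn4. The deposited value table holds log2 values that share their quantiles within 2 sets (days 0, 2 and 4, and days 1, 3 and 5); how it was made is not stated in the sources at hand, and it served as an alternative within a set.

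Levels are log2 processed intensities less the 75th percentile of the same array. Control spots and outlier spots (80 to 142 per array) were left out. Probes well above background on all 3 arrays of a day entered (27836 of 41012), and a gene took its probe with the highest mean, which gave 23185 genes and transcripts. Names were updated through the table of RefSeq rat genes by accession (18028 probes, and 202 by another accession), symbol (3170) or older symbol (388), and 19224 had no match there. One limma model (version 3.58.1, functions lmFit and eBayes, under R 4.3.3, with data.table in version 1.17.8) covered all 6 groups, Benjamini-Hochberg adjustment over all genes and a threshold of 0.05. Errors beside differences are standard errors, and n is 3 arrays per day, which limits the precision. A difference from a day with no array above background is a bound: the mean of the brighter day set against that of the dim day, each dim array being raised to its lowest reading well above background where the probe read less.

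The class II genes and the gene lists were chosen with earlier results of these data known. The class II genes were always named, and from other lists the genes past the threshold with the largest differences on day 3 or 4, up to 4 per pathway list and 3 per cell type list, with Irf1, Ifng, Rfx5, Ctss, RT1-DOa, RT1-DOb, B2m and Cd4 always named. Some genes that this rule names are not reported here. Alternatives were the background correction, the scaling, the filter, the mean of a gene's probes, slide and replicate number as terms, the variance model, single arrays left out, and the 6 arrays compared alone. The fit was tested on simulated data.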

Additional observations from a re-analysis of the deposited data

Results flagged for a closer look

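Ciita differed between neighbouring later days in opposite directions. Day 4 stood 1.35 above day 3 (limma adjusted p = 0.0318), higher on 3 of 3 arrays, as were 16.6% of all genes. The fit gave -2.31 for day 5 against day 4 (limma adjusted p = 0.00187), lower on 3 of 3 arrays, as were 11.3% of all genes. As no day 5 array was above background, the latter is a bound, at least 3.37-fold lower. These tests were added after the levels had been seen, and day 4 was scanned on another day than days 3 and 5. Ciita also entered the tests through days 2 and 4 alone. With the background correction from negative control spots the differences were 0.41 and -0.30, and neither passed (limma adjusted p = 0.0927 and 0.213). The call of day 4 against day 3 was also lost when some single arrays were left out.

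At 2 probes outside the tested set, later arrays stood above every control. A_44_P194167 of RT1-Ba reached 0.42 on day 4 replicate 3, and 4 later arrays were above the highest control (-1.60). A_44_P552452 of RT1-Bb reached 1.13 on day 5 replicate 4, the 1 later array above the highest control (0.96). Neither probe was above background on most arrays.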

How the results depend on the processing

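Counts here are of the 6 genes tested, with Ciita, and of genes higher: 3 on day 2, 5 on day 3, 4 on day 4 and 1 on days 1 and 5 (without Ciita, 2 on day 2 and 3 on day 4). With scaling to the reference genes the counts were 1, 3 and 1 on days 2, 3 and 4. The day 1 count was 0 with normexp (whose default fit gave medians of 1142 and 1008 on 2 arrays) and 2 with quantile normalization, median scaling, normexp from negative controls or the 6 arrays compared alone. The day 5 count was 2 with median scaling and 0 with normexp, quantile normalization, the reference genes, no filter, the slide as a fixed term, the replicate block and the 6 arrays alone. The slide as a fixed term left 1 on day 3, and it could not be fitted for days 2 and 4 against day 0. Many list genes lost their day 3 calls with that term too. Among them were Ms4a7, C1qb, Batf3, Cd79b, Gzmb, Prf1, Klrd1, Ifngr2, Cd40, Ctss, Psmb8, Psmb9, Psme2 and Tap1 (limma adjusted p 0.0522 to 0.177). The 6 arrays alone gave 1 between days 1 and 3, and median scaling gave 5 in the F-test. Leaving out 1 array gave 1 to 2 on day 1, 0 to 4 on day 2, 3 to 5 on day 3, 1 to 4 on day 4, 0 to 1 on day 5, and 2 to 6 in the F-test. In the comparisons among later days 0 were higher whichever array was left out, and 4 were lower on day 5 than on day 3 without day 5 replicate 5. On day 3, 5042 genes were higher and 6026 lower in all, against 8789 and 3766 with median scaling, 2365 and 9465 with the reference genes, 4853 and 9143 with normexp from negative controls, 773 and 771 with normexp, and 2905 in both directions with the slide as a fixed term.

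Replicate numbers shared between days did not pair the arrays: over 27 pairs with the same number, deviations from the day means correlated at -0.38 to 0.28, and 0 of 18 arrays correlated best with its own number. With the replicate block, 3 genes passed on day 3, 2 on day 4 and 0 on day 5.

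Signs turned as follows. With normexp, RT1-Db1 gave -0.059 on day 1 and -0.20 on day 5, and Ciita -0.42, -0.44, -0.18 and 0.28 on days 2 to 5, 0.72 for day 5 against 3 and 0.46 for day 5 against 4. With normexp from negative controls, added after seeing the data, Ciita gave -0.28, -0.37, -0.58 and -0.16 on days 1 to 4 and 0.11 for day 5 against 3. With the reference genes, RT1-Db1 gave -0.10, -0.095 and -0.26 on days 1, 4 and 5 and -0.15 for day 4 against 2, RT1-Bb -0.036 on day 5 and -0.097 for day 4 against 2, Cd74 -0.0364 on day 5, and Ciita -0.060 and -0.26 on days 1 and 3. With quantile normalization, RT1-Db1 gave -0.048 and Cd74 -0.049 on day 5, and RT1-Db1 -0.039 for day 4 against 2 (-0.042 from the authors' deposited table). With the slide as a fixed term, day 4 against 2 gave -0.77 for RT1-Da, -0.69 for RT1-Db1 and -0.40 for RT1-Bb, Ciita gave 0.46 on day 5 and 0.21 for day 3 against 1, and RT1-DOb 1.55 on day 3. On day 3, Nfya gave -0.0545 with normexp, -0.55 with the mean of probes and -0.090 with negative controls, Bank1 -0.091 with normexp and -0.20 with negative controls, Cd86 -0.020 and Gna15 -0.0135 with negative controls. Leaving out 1 array gave -0.092 to 0.50 for Ciita on day 3 and -0.50 to 0.083 for day 3 against 1. On day 5 it gave -0.45 to 0.48 for RT1-Db1, -0.23 to 0.83 for RT1-Bb and -0.021 to 0.77 for Cd74. For day 4 against 2 it gave -0.11 to 0.70 for RT1-Da, -0.25 to 0.41 for RT1-Db1, -0.34 to 0.35 for RT1-Bb and -0.27 to 0.089 for RT1-DMa. The causes were not tested.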

Other observations

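Probes that are silent on some arrays of a day and clearly lit on others were counted over the whole array, by a rule chosen after the RT1 values had been seen. The rule asked for a gap of at least 3 log2 units, at least 2 arrays on each side, all arrays of the upper side and none of the lower well above background, and a split within a day. It found 12 of 40923 probes (0.0293%), among them the 2 RT1 probes that prompted it. These were A_44_P139882 of RT1-Db1, silent on day 0 replicate 5 and day 1 replicate 1 with a gap of 3.01, just over the limit, and A_44_P552452 of RT1-Bb, lit on day 0 replicate 5 and day 5 replicate 4 with a gap of 6.25. Day 0 replicate 5 was thus on the rarer side at both probes.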
